A study of Xenopus tropicalis with 8 samples.

Results

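The lens crystallins of western clawed frog embryos were followed on 8 arrays. A probe was taken where its transcript belongs to a RefSeq gene whose symbol starts with crya, cryb or cryg, and where the scanner software marked it as well above background on each array of the DY7 group or of the control group. The name matched 34 of the 32899 probes, which stand for 31 of the 58 such genes in the RefSeq table. Of these, 28 probes of 26 genes also met the condition on background. They comprised 2 gamma A probes (cryga.1 and cryga.7), 22 gamma D-like and gamma B-like probes of 20 genes (crygdl, crygdl2 and crygbl), 2 beta probes (cryba1.2 and cryba2) and the probes of crybg1 and crybg2. Over the whole array, 5891 probes (17.9%) matched a RefSeq gene, so further crystallin probes may be among those without a name. No probe sequences or coordinates were used here.

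Crystallins are the soluble proteins that fill the fibre cells of the lens and give it its refractive power. The alpha crystallins are small heat shock proteins that keep other proteins from clumping, while the beta and gamma crystallins share a compact structural fold and have no enzyme activity in the lens. Gamma crystallins are packed most densely in the fibre cells at the core of the lens, and frogs carry many closely related copies of them. The genes crybg1 and crybg2 contain the same fold but are not lens structural proteins, and entered through their names.

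Disperse Yellow 7 (DY7) is an azo dye for synthetic textiles. The study exposed embryos to it during development and measured total RNA on single-colour (Cy3) oligonucleotide arrays. The DY7 embryos received 887 ppm of the dye (4 samples), and the control embryos have their treatment labelled as none (4 samples). Both groups are labelled as embryos of stages 12 to 46, with no vehicle named and no statement of how many embryos or clutches a sample holds. The p-values therefore measure the spread between these samples, which may be partly technical. In whole embryos, fewer lens cells and less crystallin RNA per lens cell cannot be told apart.

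The signal at the 75th percentile of all probes ran from 126 to 202 on the DY7 arrays and from 162 to 327 on the control arrays. The share of probes well above background ran from 64.0% to 73.5% on the DY7 arrays and from 51.6% to 75.9% on the control arrays, with control 2 at the low end. Scaled levels below are log2 processed signal minus the log2 75th percentile of the same array, so that 0 is the level of that percentile. A probe was called where limma's Benjamini-Hochberg adjusted p over all 20289 tested probes was under 0.05. With scaling to the 75th percentile, 1839 of these probes were called higher and 1028 lower in DY7. With scaling to the median the split was 1035 higher and 1330 lower, with quantile normalization 1968 and 1656, and with no scaling 34 and 685. Over the same probes the middle log2 fold change was 0.06 with the first scaling, -0.06 with the median and -0.42 with none.

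Of the crystallins, the 2 gamma A probes that met the condition on background were lower in DY7 embryos and 1 gamma D-like probe was higher. The brightest gamma probes and both beta probes were not called. Thus 3 of the 28 crystallin probes were called (10.7%), against 14.1% of all tested probes. Of the 3, cryga.1 met the condition on background through the control group alone, and the uncalled crybg2 through the DY7 group alone, so the count is a description. The 2 calls of lower level compare with 5.07% of all tested probes called lower, and the 1 call of higher level with 9.06% called higher. In all, 25 of the 28 crystallin probes had a log2 fold change below 0, against 8769 of the 20289 tested probes. The median of the 28 was -0.16, against 0.06 over all tested probes. Of the 25, 19 gave nearly the same values on each array and are cross-hybridising by design, so that the 25 are not separate observations. With quantile normalization 4 of these 19 were above 0. An unadjusted p under 0.05 was found for 4 crystallin probes (14.3%), against 33.6% of all tested probes. The DY7 and control arrays did not overlap for cryga.1, cryga.7 and crygdl.5, against 21.6% of all tested probes.

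The gamma A crystallin cryga.1 was read by a specific probe with 2 spots on each array. Its processed signal was 10.7, 8.34, 9.27 and 12.4 on DY7 arrays 1 to 4, against 60.0, 53.4, 35.0 and 125 on control arrays 1 to 4. Every DY7 array lay below every control array, and the closest signals were those of DY7 4 and control 3. On the scaled log2 level the DY7 arrays stood at -3.97, -3.91, -4.29 and -4.03, against -2.02, -1.60, -2.68 and -1.39 on the control arrays. The group means were -4.05 ± 0.17 in DY7 and -1.92 ± 0.57 in control (SD, n = 4 each), so the DY7 arrays were close together at the low end and the control arrays were spread. The log2 fold change of cryga.1 was -2.13 ± 0.25 (± SE; limma adjusted p = 0.00243, with 4 arrays per group; 95% interval -2.69 to -1.57). This probe met the condition on background through the control arrays alone, the group in which it is high, so that some difference was built into its selection and the size of the fall is uncertain.

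The low end of the cryga.1 range lay at the background of the arrays. Both spots were well above background on 1 of 4 DY7 arrays (DY7 4) and on all 4 control arrays. The lowest signal of any probe well above background was 10.6, 10.3, 10.7 and 9.08 on DY7 arrays 1 to 4, and 9.57, 21.8, 11.3 and 11.1 on control arrays 1 to 4. The cryga.1 signal was above that floor on DY7 1 and DY7 4, below it on DY7 2 and DY7 3, and above it on each control array. The brighter of its spots was at most 1.76 times the dimmer on an array, with a median of 1.08. With each DY7 value raised to that floor where it was under it, the fall of cryga.1 was 4.01-fold. The floor is not the limit of this probe, which was above it on DY7 1 without being well above background. The 4.01-fold is therefore not a lower bound. The percentile of cryga.1 among the probes of an array was 31.6, 29.8, 23.5 and 29.1 in DY7, against 52.9, 58.2, 41.8 and 59.7 in control. Slide 1 gave a log2 fold change of -2.13 and slide 2 one of -2.13, neither of which alone gave a call (adjusted p = 0.0643 and 0.176). The call was kept with each of the 8 arrays left out in turn, at -2.38 to -1.95. These fits used the probes selected on all 8 arrays, so the selection of cryga.1 through the control group was not repeated. The normexp background correction with an offset of 50, which is larger than each DY7 signal of cryga.1, gave -0.72 ± 0.23 (adjusted p = 0.404). With extreme local backgrounds repaired first it gave -0.41 ± 0.16 (adjusted p = 0.106), so neither version called cryga.1.

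The gamma A gene cryga.7, also read by a specific probe with 2 spots, was lower in DY7 embryos as well. Its signal was 21.7, 15.1, 49.7 and 54.8 on DY7 arrays 1 to 4, against 85.9, 105, 88.3 and 242 on control arrays 1 to 4. The probe was well above background on all 8 arrays, and again no DY7 array reached a control array. DY7 arrays 1 and 2, both on slide 1, were the lower ones of their group, and control arrays 2 and 4 the higher ones of theirs. The scaled log2 levels were -2.95, -3.06, -1.86 and -1.88 in DY7 (mean -2.44 ± 0.65 SD), against -1.50, -0.62, -1.34 and -0.43 in control (mean -0.97 ± 0.53 SD). The log2 fold change was -1.47 ± 0.34 (± SE; limma adjusted p = 0.0252; 95% interval -2.24 to -0.70), or 2.76-fold lower in DY7. On slide 1 it was -1.94 and on slide 2 -0.99, and neither slide alone gave a call. The call was lost without DY7 1 (-1.29, adjusted p = 0.0534), without DY7 2 (-1.26, 0.0694) and without control 4 (-1.29, 0.0695). It was also lost with the normexp correction (-0.75, 0.198) and with no filter on dim probes (0.0902). The repaired normexp correction kept it, at -0.61.

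Among the gamma A genes, 6 are listed together on 1 chromosome of the RefSeq table, 4 are named on the array and 2 met the condition. The probe of cryga.4 lay just outside it, being well above background on 3 of 4 DY7 and 3 of 4 control arrays, with signals of 12.7, 18.7, 20.2 and 21.5 in DY7 and 22.8, 13.4, 21.0 and 31.6 in control. The probe of cryga.6 was well above background on 1 of 4 DY7 and 2 of 4 control arrays, with signals of 8.14, 4.27, 8.40 and 12.5 in DY7 and 14.7, 17.4, 15.7 and 34.1 in control. These signals overlapped between groups for cryga.4 but not for cryga.6, and after scaling the groups overlapped for both. The scaled mean of cryga.4 was -3.22 in DY7 and -3.45 in control, so it was not lower in DY7. That of cryga.6 was -4.42 in DY7 and -3.59 in control. Just inside the condition, crybg2 was well above background on 4 of 4 DY7 and 3 of 4 control arrays. The other 4 probes left out were at background on nearly all arrays: cryab (alpha B crystallin), crygdl.2 and a second crygdl.39 probe were well above it on none of the 8, and crygdl.15 was well above it on 0 of 4 DY7 and 1 of 4 control arrays. No probe of an alpha crystallin therefore gave a level.

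The scaling between arrays drops out of the difference of 2 probes on the same array. Such differences are given for 6 pairs that were chosen after the values had been seen, and so without a test. The log2 signal of cryga.1 minus that of cryba2 was -9.88 ± 0.31 in DY7 and -7.83 ± 0.44 in control (SD, n = 4 each), a shift of -2.05. Against cryba1.2 and crybg1, cryga.1 shifted by -1.86 and -2.04, with 3 of its 4 DY7 values not well above background. The shift of cryga.7 was -1.39 against cryba2, -1.20 against cryba1.2 and -1.37 against crybg1. Against crybg1 the groups overlapped, as DY7 3 at -1.93 lay above control 1 at -1.98. With the normexp corrections the shifts were smaller. Those of cryga.1 were -0.72, -0.56 and -0.63 against cryba2, cryba1.2 and crybg1 as planned, and -0.19, -0.03 and -0.31 after the repair. Those of cryga.7 were -0.75, -0.59 and -0.66 as planned, and -0.39, -0.23 and -0.51 after it.

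The gamma D-like crystallin crygdl.5 was the crystallin probe called higher. Its probe is cross-hybridising by design, which means that it may also bind other transcripts, and has 1 spot. The signal was 575, 523, 734 and 583 on DY7 arrays 1 to 4, against 609, 383, 535 and 761 on control arrays 1 to 4, and these unscaled signals overlapped. On the scaled log2 level it stood at 1.77, 2.06, 2.02 and 1.53 in DY7 (mean 1.84 ± 0.25 SD), against 1.33, 1.24, 1.26 and 1.22 in control (mean 1.26 ± 0.05 SD). The scaled levels did not overlap, since every DY7 array lay above the highest control array. The log2 fold change was 0.58 ± 0.13 (± SE; limma adjusted p = 0.0208), or 1.498-fold higher. With no scaling it was 0.11 and not called, so the call depends on the arrays being scaled. It was also lost with no filter on dim probes (adjusted p = 0.0787), with the planned normexp correction (0.58, 0.379), and without DY7 2 (0.51), DY7 3 (0.52), control 1 (0.60) or control 4 (0.57). Each slide alone gave 0.63 and 0.53, with no call. The call was kept by limma with scaling to the median (0.47, adjusted p = 0.0490) and with quantile normalization (0.56, 0.0223). The repaired normexp correction also kept it (0.47, 0.0247).

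The probe of crygdl.39, also cross-hybridising with 1 spot, had the next largest positive fold change and was not called. Its scaled levels were 1.46, 1.94, 1.81 and 1.62 in DY7, against 1.05, 1.55, 1.55 and 1.12 in control. Those ranges overlap between DY7 1 and the higher control arrays. The log2 fold change was 0.39 ± 0.16 (limma adjusted p = 0.122, n = 4 arrays per group). With the replicate number as a block, which called 25.3% of all tested probes, crygdl.39 was called (adjusted p = 0.0230).

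Most of the gamma D-like and B-like probes gave some of the strongest signals on the arrays. They were 19 cross-hybridising probes named for 17 genes. The genes were crygbl.2 and the D-like genes crygdl.1, crygdl.4, crygdl.6, crygdl.11 to crygdl.14, crygdl.23 to crygdl.25, crygdl.29, crygdl.31, crygdl.32, crygdl.35, crygdl.41 and crygdl.45. The probes were grouped after their values had been seen, as those with a signal above 20000 on every array. Each stood above the 99.3rd percentile of the probes of an array. By contrast, the specific crygdl probes, those of crygdl.2 and crygdl.15, were at background on nearly all arrays. Which of the named genes give the bright signal was therefore not determined. Between 97 and 145 other probes of an array were brighter than all 19, and no spot was saturated. The median signal of the 19 was 23993, 22082, 33189 and 37973 on DY7 arrays 1 to 4, against 37162, 44920, 30489 and 76893 on control arrays 1 to 4. The groups overlapped, with control 4 the highest and DY7 2 the lowest.

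The 19 probes gave nearly the same signal. On each array the brightest of them was 1.08 to 1.26 times the dimmest. The RefSeq table places 36 crygdl genes on 1 chromosome, of which 20 are named on the array and 18 met the condition. Since the design marks these probes as cross-hybridising, they may bind the same transcripts and are not 19 observations. Their scaled median was 7.16, 7.46, 7.52 and 7.55 in DY7 and 7.26, 8.12, 7.09 and 7.88 in control. Their log2 fold changes ran from -0.21 to -0.13 with a median of -0.16 and SEs of 0.21 to 0.24 (n = 4 arrays per group; limma adjusted p from 0.547 to 0.725). The 95% intervals of the 19 together reached from -0.72 to 0.40, so that changes of either sign remain compatible with the values of 4 arrays per group. None was called, and 0 of the 19 had an unadjusted p under 0.05 by limma. Without control 2 their median log2 fold change was 0.01, with 15 of the 19 above 0. On slide 2 alone, which leaves out arrays 1 and 2 of both groups, it was 0.05, with 19 above 0. On slide 1 alone it was -0.36, so the direction of the set depends on which arrays enter. Over all 28 crystallin probes the median was likewise 0.01 without control 2, where 16 changed sign, and 0.05 on slide 2 alone, where 20 did; the gamma A probes and crygdl.5 kept theirs.

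The genes crygdl.11 and crygdl.35 each had more than 1 bright probe. The first crygdl.11 probe stood at 7.34, 7.37, 7.41 and 7.55 in DY7, against 7.25, 8.30, 7.15 and 7.79 in control, with a log2 fold change of -0.21 ± 0.23. The second stood at 7.12, 7.50, 7.52 and 7.57 in DY7, against 7.18, 8.12, 7.07 and 7.89 in control, with -0.14 ± 0.24. Both had control 2 as the highest array. For crygdl.35 the log2 fold changes were -0.15 ± 0.22 and -0.14 ± 0.22.

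The beta crystallins, which the lens makes alongside the gamma crystallins, were read by specific probes. The scaled levels of cryba1.2 were 6.22, 6.37, 6.36 and 6.48 in DY7, against 6.38, 6.86, 6.45 and 6.82 in control. The highest DY7 array (DY7 4) lay above control arrays 1 and 3, so the groups overlapped. The log2 fold change of cryba1.2 was -0.27 ± 0.13 (limma adjusted p = 0.187; 95% interval -0.57 to 0.03). The second beta gene, cryba2, stood at 5.80, 5.57, 5.88 and 6.07 in DY7 and at 5.49, 6.29, 5.76 and 6.11 in control. Its control values bracketed all DY7 values. Its log2 fold change was -0.08 ± 0.18 (adjusted p = 0.789; interval -0.49 to 0.33), with a single spot per array.

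The remaining gamma probe, crygdl2.2, is cross-hybridising. Its scaled levels were 4.67, 5.36, 5.48 and 5.61 in DY7, against 5.09, 6.38, 4.94 and 6.26 in control, and the control spread held all but DY7 1. Its log2 fold change was -0.39 ± 0.35 (limma adjusted p = 0.466, n = 4 arrays per group). The gene crybg1, which is not a lens structural gene, stood at 0.25, 0.16, 0.07 and 0.41 in DY7 and at 0.48, 0.22, 0.05 and 0.51 in control. The groups overlapped throughout, with a log2 fold change of -0.09 ± 0.13 (adjusted p = 0.651). For crybg2 the levels were -2.37, -1.93, -1.80 and -2.40 in DY7 and -2.41, -2.72, -2.19 and -2.18 in control, with a log2 fold change of 0.25 ± 0.18 (adjusted p = 0.341).

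Within each group, the 19 bright gamma probes kept a common order of the arrays. DY7 1 was the lowest DY7 array for 19 of them and DY7 4 the highest for 16, while control 2 was the highest and control 3 the lowest control array for 19. Over all tested probes control 2 was the highest control array for 15.7% and the lowest for 49.6%, and control 3 was the lowest for 21.2%. Of the 7 other lens crystallin probes, which leave out crybg1 and crybg2, control 2 was the highest control array for 3, control 3 the lowest for 2 and DY7 1 the lowest DY7 array for 3. The gamma A probes did not keep the whole order. Within control, cryga.1 was highest on control 4 but lowest on control 3, as the bright gamma probes were. Within DY7 it was lowest on DY7 3. It was not well above background on DY7 1, DY7 2 and DY7 3, so its order within DY7 cannot be read. The probe of cryga.7 was lowest on DY7 2 and on control 1 and highest on control 4. The SD of the scaled levels of the 19 bright gamma probes was 0.09 to 0.23 in DY7 and 0.45 to 0.53 in control. It was smaller in DY7 for 19 of 19 probes, against 51.3% of all tested probes. As these probes may bind the same transcripts, they count as 1 such comparison. Their spread depends on the scaling between arrays. With quantile normalization the SEs of their log2 fold changes ran from 0.08 to 0.14, against 0.21 to 0.24 in the main fit. Whether their SD is also smaller in DY7 with quantile normalization was not tested.

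The lens filament gene bfsp1, whose protein builds the beaded filaments of fibre cells, was measured by a specific probe. Its scaled log2 levels were -1.64, -1.27, -1.17 and -1.23 in DY7 and -1.78, -1.06, -1.59 and -0.77 in control. It did not keep the order of the bright gamma probes, as its highest control array was control 4 and its lowest control 1. Controls 2 and 4 lay above controls 1 and 3 for bfsp1, as for the bright gamma probes and both gamma A probes. The same held for cryba1.2, cryba2 and crygdl2.2, but not for crygdl.5 or crygdl.39. How many of all tested probes show this split was not counted. DY7 1 was the lowest DY7 array for bfsp1. The log2 fold change of bfsp1 was -0.03 ± 0.22 (limma adjusted p = 0.947, n = 4 arrays per group), with the groups overlapping. The partner bfsp2 and the lens regulators foxe3 and hsf4 were on the array but under the condition on background in both groups.

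The other lens genes were taken from 2 lists, and in whole-embryo RNA their signal may come from other tissues as well. Of 44 regulators of lens and eye development, 12 were measured, 1 was called higher, 0 were called lower, and their median log2 fold change was 0.10. The called one was zeb2, a zinc finger repressor, at 0.32 ± 0.09 (limma adjusted p = 0.0494, cross-hybridising). Not called among the transcription factors were pitx3 at 0.85 ± 0.33 (adjusted p = 0.106), sox2 at -0.30 ± 0.10 (0.0642), vax2 at -0.46, prox1 at -0.30, rax at 0.10, pou2f1 at 0.09, six3 at 0.08 and hmx1 at -0.04. Nor were the receptor gene notch2 at 0.70, its ligand gene jag1 at 0.28 and the growth factor gene bmp4 at 0.27. Of these regulators, notch2, bmp4, prox1 and pou2f1 met the condition on background through the DY7 group alone, in which all but prox1 were higher. Of 40 genes for lens fibre membranes, skeleton and capsule, 8 were measured and 0 called, with a median of 0.11. An unadjusted p under 0.05 by limma was found for 6 of the 8, against 33.6% of all tested probes. It was also found for 5 of the 12 measured regulators and for 5 of the 6 measured red cell genes given below. The 6 lens fibre genes changed in both directions. Among them, tmod1 met the condition on background through the DY7 group alone, where it was higher, so the count is a description. The 8 were the capsule collagens col4a1 (-0.30) and col4a2 (-0.35), the laminins lamb2 (0.59) and lama1 (0.39), the actin-capping gene tmod1 (0.60), the nuclease gene dnase2b (-0.31), nhs (0.25) and bfsp1. In the 2 lists the probes of zeb2, sox2, rax, pou2f1, six3, bmp4 and dnase2b are cross-hybridising and may also bind other transcripts. The rax probe stood at 8.575 to 9.032 on the scaled log2 level, above all 19 bright gamma probes. Which transcripts it reads was not tested.

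Markers of other cells of the eye and body were given for comparison, since all sit in the same whole-embryo RNA. Of 8 measured photoreceptor genes, the disc rim gene rom1 was lower at -0.78 ± 0.16 (limma adjusted p = 0.0164) and the guanylate cyclase gene gucy2d higher at 0.66 ± 0.18 (0.0430). Of 6 measured genes of other retinal neurons, nefl, a neurofilament gene that also stands among the 4 measured genes of neurons in general, was lower at -0.48 ± 0.12 (0.0307). No call was made among the 6 measured pigment cell genes, with a median log2 fold change of 0.03; by limma 0 of them had an unadjusted p under 0.05. In cornea and epidermis 1 of 4 was called (krt78.6, a keratin, at -0.46, cross-hybridising). In skeletal muscle 1 of 5 was called (tnnt1, a slow troponin, at -0.996). In red cells 2 of 6 were called: ca1, a carbonic anhydrase, at -2.10 and epor, the erythropoietin receptor, at 0.41. The ca1 probe was well above background on 2 of 4 DY7 arrays. It met the condition on background through the control group alone, in which it was higher, so some difference was built into its selection. In the 5 lens and eye lists together 4 of 40 measured genes were called, 2 lower and 2 higher, against 14.1% of all tested probes, and the counts of 1 or 2 calls in the other lists stand against the same share. With scaling to the median 4 of the 40 were called lower and 0 higher, and with quantile normalization 3 lower and 0 higher. The part of these cell types in the crystallin values was not tested.

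The genes whose profile over the 8 arrays lay closest to each called crystallin were found among 3144 other tested named probes, as the smallest root mean square difference of the log2 levels after centring each probe on its mean. For cryga.1 they were cd36l at 0.33, cttnbp2 at 0.52 and arsa.2 at 0.54 on the log2 scale. For cryga.7 they were pappa2 at 0.50, rnf14.4 at 0.51 and smarca1 at 0.52. For crygdl.5 they were sbspon and perp, both at 0.06, and gcfc2 at 0.07. The difference between the groups is part of each profile, so the measure of likeness takes it in. The probes of cttnbp2, rnf14.4, perp and gcfc2 are cross-hybridising. Those of pappa2 and rnf14.4 were well above background on 2 and 3 of 4 DY7 arrays. Both met the condition on background through the control group alone, in which they were higher.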

How the data were processed

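Total RNA of 4 DY7 and 4 control samples was measured on Agilent arrays, 2 of each group on each of 2 slides. The deposited scanner files hold intensity values per spot, background-corrected by Feature Extraction (per the file headers, 10.7.3.1 for slide 1 and 10.7.1.1 for slide 2). The authors' deposited series matrix holds log2 values that correlated at 0.986 or higher with the log2 signal of the same array; its medians over the probes ran from 5.38 to 5.53, and how it was centred is unknown. Of 45220 spots per array, 1417 control spots were left out, and outlier-flagged spots were removed. Replicate spots were averaged on the log2 scale. From each log2 processed signal, that of the 75th percentile on its array was subtracted.

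A probe was tested where every array of either group had it well above background (20289; 32 others were emptied by flags). Groups were compared with limma 3.58.1 in R 4.3.3 (with data.table, version 1.17.8), two-sided, with Benjamini-Hochberg adjustment; the SE is that of the difference of group means. The script was tested on simulated data. Names came from a RefSeq table of assembly UCB_Xtro_10.0, and no coordinates are given, as the design used JGI 4.1. The members, the lists and the named-gene rule (each crystallin probe, every measured gene of the 2 lens lists, called genes of the others, and the 3 nearest profiles) were chosen with earlier results of these data known. The normexp alternative used the median spot signal, as the files hold no mean signal.

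Same-numbered DY7 and control arrays deviated together from their group means (correlations 0.306, 0.107, 0.455 and 0.449 for numbers 1 to 4, each over 0.1). The labels do not state a pairing. Same-numbered arrays also share a slide, so these correlations cannot tell a pairing from the slide. The fit reported has no block and does not treat the arrays as pairs. A fit with the replicate number as a block was an alternative and called 5124 probes. With slide as a block 2741 were called, against 2867 with no block. Whether the numbers mark pairs was not tested.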

Additional observations from a re-analysis of the deposited data

Results flagged for a closer look

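For 3 bright gamma probes, DY7 1 stood far below the other 3 DY7 arrays, by Dixon's test for groups of 4. The scaled log2 level was 7.135 on DY7 1 for crygdl.41, against 7.49 to 7.52 on the others, 7.1174 for 1 of the crygdl.11 probes, against 7.50 to 7.57, and 7.1636 for crygdl.1, against 7.55 to 7.59. In all 56 groups of 4 values were checked, of which chance flags about 1 in 20. The 3 probes are cross-hybridising by design and are not counted as separate observations.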

How the results depend on the processing

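The main analysis called 2867 probes, 3 crystallin probes and 4 lens and eye genes, all with limma. With no filter 562 of 32832 probes were called, and over the brightest probe of each named gene 383 of at most 3145. Of the 20289 tested probes, normexp correction called 15, repaired normexp 1535 and no scaling 719. The replicate block called 5124, slide as a block 2741, slide 1 alone 6 and slide 2 alone 0. Leaving out 1 array gave 1091 to 3323. The crystallin count was 0 with normexp, 1 with no filter and 0 on each slide alone, and 1 to 3 with 1 array left out; the unadjusted p was under 0.05 for 4 crystallin probes with normexp and for 3 on each slide. The lens and eye count was 0 with normexp, 2 with repaired normexp, 1 with no scaling, 0 with no filter, 7 with the replicate block, 2 with slide as a block and 0 on each slide, and 0 to 5 with 1 array left out. At an unadjusted p under 0.05, normexp gave 2 of these genes, no filter 14, slide 1 6 and slide 2 3, and slide 2 gave 3308 probes. The replicate block changed no crystallin call other than that of crygdl.39. A slide alone leaves 2 arrays per group. Depth limits are those of the background: 3 of 4 cryga.1 values in DY7 were not well above it.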
